A study of Homo sapiens with 33 samples.

Results

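Ribosome biogenesis factors, the proteins that make and fold ribosomal RNA and put the ribosomal subunits together, were followed across 11 groups of anaplastic large cell lymphoma (ALCL) cells. The set is a list of 50 named genes. Of these, 38 were measured by 53 probe sets that the platform annotation gives to 1 gene, out of 11963 genes named in that way. NOP56, DKC1, BOP1 and PPAN had only probe sets with several gene symbols and are given no value. NOP58, UTP4, NOB1, LYAR, GNL3, EBNA1BP2, DDX18 and SURF6 were not analysed here. The 38 measured genes all passed the filter on low signals, and they fell into 4 roles: 8 of 9 listed for RNA polymerase I and the organisation of the nucleolus, 4 of 7 core proteins of small nucleolar ribonucleoproteins (snoRNPs), 13 of 15 for the small (40S) subunit and 13 of 19 for the large (60S) subunit.

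Ribosomes are built in the nucleolus. RNA polymerase I transcribes a long precursor RNA there, snoRNPs guide the chemical modification of its bases and riboses, and large transient assemblies fold it, cut it and add ribosomal proteins until separate 40S and 60S precursors leave for the cytoplasm. The work takes a large share of the energy of a growing cell, and the transcription factor MYC is well known for switching on many of its genes.

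The cells were TS, a subclone of the Sup-M2 line, and Su-DHL1, both ALCL lines that are positive for the tyrosine kinase ALK. For the hairpin experiment they carried lentiviral constructs for a short hairpin RNA that doxycycline switches on, and they were sorted for double fluorescence and for silence of the construct without doxycycline, then expanded. The ALK hairpin A5 was induced with doxycycline (1 microg/ml) for 84 h in one set of TS cells and for 72 h in another, and for 72 h in Su-DHL1 cells. Each of these 3 settings had its own uninduced A5 cells, and the mutated hairpin A5M was induced for 84 h in TS cells. For the inhibitor experiment TS cells received compound A2, A3 or A1 at 300 nM for 6 h, or no compound (U). A1 is called an ALK inhibitor in the sample descriptions and the mock compound in the design text, where U is described as diluent, and both served as controls here. Every group had 3 Affymetrix HG-U133A arrays, 33 in all. The labels do not say whether these 3 came from different cultures, and the spread behind every p-value may therefore be only technical.

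Array values were MAS5 signals, an intensity per probe set scaled to the same trimmed mean on every array, so a change in the total RNA of a cell could not be seen. Fold changes are differences of log2(signal + 11), which understates the change of dim genes, and are followed by limma's standard error. A gene was called where limma's p-value, adjusted by Benjamini-Hochberg over all genes tested, lay under 0.05. ALK fell in each of the 3 hairpin settings, with a log2 fold change of -2.54 ± 0.06 on their average (limma adjusted p = 9.61e-20). Of 9 markers of ALCL and T cells, 6 stood above their own array's median on all 33 arrays, against 0 of 4 measured B-cell markers, 0 of 5 myeloid markers and 1 of 5 epithelial and stromal markers (COL1A1, by 1 of its 4 probe sets). The summed signal of the ALCL and T-cell markers ranged between 5783 and 18880, that of the B-cell markers between 98.5 and 238.2, that of the myeloid markers between 137.4 and 661.9 and that of the epithelial and stromal markers between 160.7 and 463.7. By the brightest probe set of each gene, the myeloid CSF1R stood above the array median on 31 arrays and ITGAM on 22. The B-cell gene CD22 did so on 27. Among the ALCL and T-cell markers, CD3E stood above it on 20 arrays, CD2 on 3 and CD4 on 2. The ratio of 3' to 5' ACTB control probes, which depends on RNA quality and labelling, moved with some groups. At 84 h it averaged 1.27 with A5, 1.52 with A5M and 1.54 without doxycycline. At 72 h it averaged 1.32 with and 1.59 without doxycycline in TS cells, but 1.36 with and 1.39 without doxycycline in Su-DHL1 cells. It averaged 1.05 with A2, 1.06 with A3, 1.33 with A1 and 1.18 in U.

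The start sites of these genes are shown first, because many hold the same 6 letters. The sequence CACGTG, called an E-box, is the motif that MYC with its partner MAX is known to bind, and it reads the same on both strands. RefSeq promoters on GRCh38.p14, 250 bases before to 50 after each annotated start, were given for 33 of the 38 measured genes. CACGTG stood in the promoter of 16 of these 33 genes (48.5%), against 948 of 7461 genes tested in the hairpin experiment with a promoter (12.7%). Of all promoters in the table, 7.26% held it, against 41.0% of the 39 promoters of the measured genes. In all 16 a copy lay within 50 bases of the start, where 5.54% of the genes tested held one. The motif CACGCG, searched with its reverse complement CGCGTG, stood in 10 of the 33 genes (30.3%) and in 21.1% of the genes tested. These shares are a description of letters, and say nothing of binding in these cells.

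The first 6 windows below belong to E-box genes that fell with the hairpin and with the inhibitors, FBL to an E-box gene that fell with the hairpin and was not called with the inhibitors, and UTP20 to one that was not called on the hairpin average and fell with the inhibitors. NOP16 and NPM3 have neither motif in the whole 300-base promoter and fell with the hairpin all the same. Each window runs from 60 bases before the start through the first 30 transcribed bases, 5′ to 3′ on the gene's strand, with the E-box in capitals. They lie at chr1:19251745-19251834 (plus strand) for MRTO4, chr3:51941875-51941964 (minus) for RRP9, chr10:68956587-68956676 (plus) for DDX21, chr11:34105569-34105658 (plus) for NAT10, chr1:37595908-37595997 (minus) for GNL2, chr2:28894607-28894696 (plus) for WDR43, chr19:39846350-39846439 (minus) for FBL, chr12:101280045-101280134 (plus) for UTP20, chr5:176388569-176388658 (minus) for NOP16 and chr10:101783417-101783506 (minus) for NPM3.
MRTO4: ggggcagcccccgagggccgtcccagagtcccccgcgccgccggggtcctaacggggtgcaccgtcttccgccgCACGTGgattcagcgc
RRP9: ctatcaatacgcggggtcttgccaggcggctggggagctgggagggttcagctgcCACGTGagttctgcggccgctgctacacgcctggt
DDX21: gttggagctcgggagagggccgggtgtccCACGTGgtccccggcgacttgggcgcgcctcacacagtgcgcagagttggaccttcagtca
NAT10: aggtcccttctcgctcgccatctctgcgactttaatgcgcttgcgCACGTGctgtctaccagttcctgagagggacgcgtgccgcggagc
GNL2: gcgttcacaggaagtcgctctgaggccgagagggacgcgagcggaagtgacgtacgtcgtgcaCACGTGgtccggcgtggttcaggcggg
WDR43: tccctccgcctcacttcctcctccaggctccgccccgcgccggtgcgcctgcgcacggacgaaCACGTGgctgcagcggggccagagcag
FBL: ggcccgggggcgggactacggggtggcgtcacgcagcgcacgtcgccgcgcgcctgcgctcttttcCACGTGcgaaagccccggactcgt
UTP20: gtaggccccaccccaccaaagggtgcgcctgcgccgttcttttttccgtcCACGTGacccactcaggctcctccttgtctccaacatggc
NOP16: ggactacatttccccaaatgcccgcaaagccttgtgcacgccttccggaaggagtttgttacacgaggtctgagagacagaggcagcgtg
NPM3: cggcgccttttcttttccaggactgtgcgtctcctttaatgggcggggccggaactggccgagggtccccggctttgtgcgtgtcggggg
The E-box began 14 bases after the start base in MRTO4, 3 bases after it in GNL2 and WDR43 and 6 bases after it in FBL. It began 5 bases before the start base in RRP9, 10 bases before it in UTP20, 15 bases before it in NAT10 and 31 bases before it in DDX21.

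**Figure D1:**
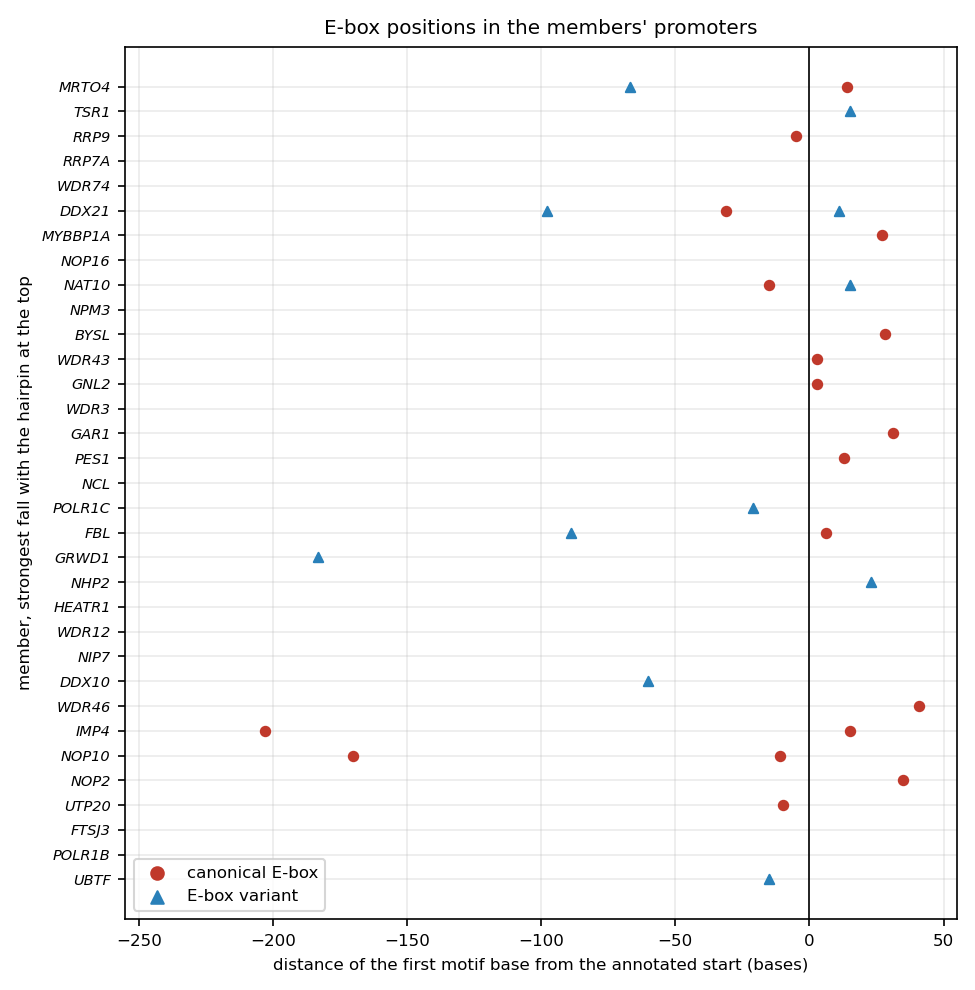
Position of each motif copy in the promoters of the 33 measured genes with a RefSeq promoter, in bases from the annotated start (vertical line). Genes run down the page by their change with the ALK hairpin, the strongest fall at the top. Circles mark the canonical E-box, found in 16 genes with a copy close to an annotated start in each, and triangles mark the variant, found in 10 genes. E-box genes stand at the top of the order and also near its foot.

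Induction of the ALK hairpin lowered most of the ribosome biogenesis genes in both lines. On the average of the 3 settings, 33 of the 38 fell and 0 rose, with a median log2 fold change of -0.56. Over all 9097 genes tested, 21.7% fell and 29.1% rose, and the median was 0.07. In TS cells at 84 h 32 of the 38 fell and 0 rose, with a median of -0.73, where 18.8% of all genes tested fell and 21.8% rose. In TS cells at 72 h 27 fell and 0 rose, with a median of -0.58, where 15.2% of all genes fell and 19.0% rose. In Su-DHL1 cells at 72 h 26 fell and 0 rose, with a median of -0.48, where 10.7% of all genes fell and 13.9% rose. In these bulk samples, fewer cells of a kind and less RNA per cell cannot be told apart. Once the ACTB ratio entered the model, 26 genes fell on the average. In TS cells this model gave 23 lower genes for 84 h and 19 for 72 h. It gave 26 in Su-DHL1 cells, the line whose ACTB ratio was nearly equal in induced and uninduced cells. There the covariate could move the estimates only little, so the unchanged count is no test of the ratio. Shares of all genes called in this model are not given here. A loss of calls particular to the 38 genes and a general one therefore cannot be told apart.

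The same 25 genes fell in each of the 3 settings, an overlap that was not counted over all genes tested. NOP2 and WDR46 fell in 2 settings, and GRWD1, IMP4, NIP7, NOP10, RRS1 and URB2 in 1. FTSJ3, POLR1B, RRP12, UBTF and UTP20 were called in none. MYC itself, which is no member of the list, also fell. Its signal was 309.9, 327.6 and 330.3 with A5 at 84 h, against 1444.0, 1163.8 and 1364.4 without doxycycline. MYC fell by a log2 fold change of -2.0 ± 0.09 for 84 h in TS cells, -1.45 ± 0.09 for 72 h in TS cells and -1.15 ± 0.09 for Su-DHL1.

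**Figure D2:**
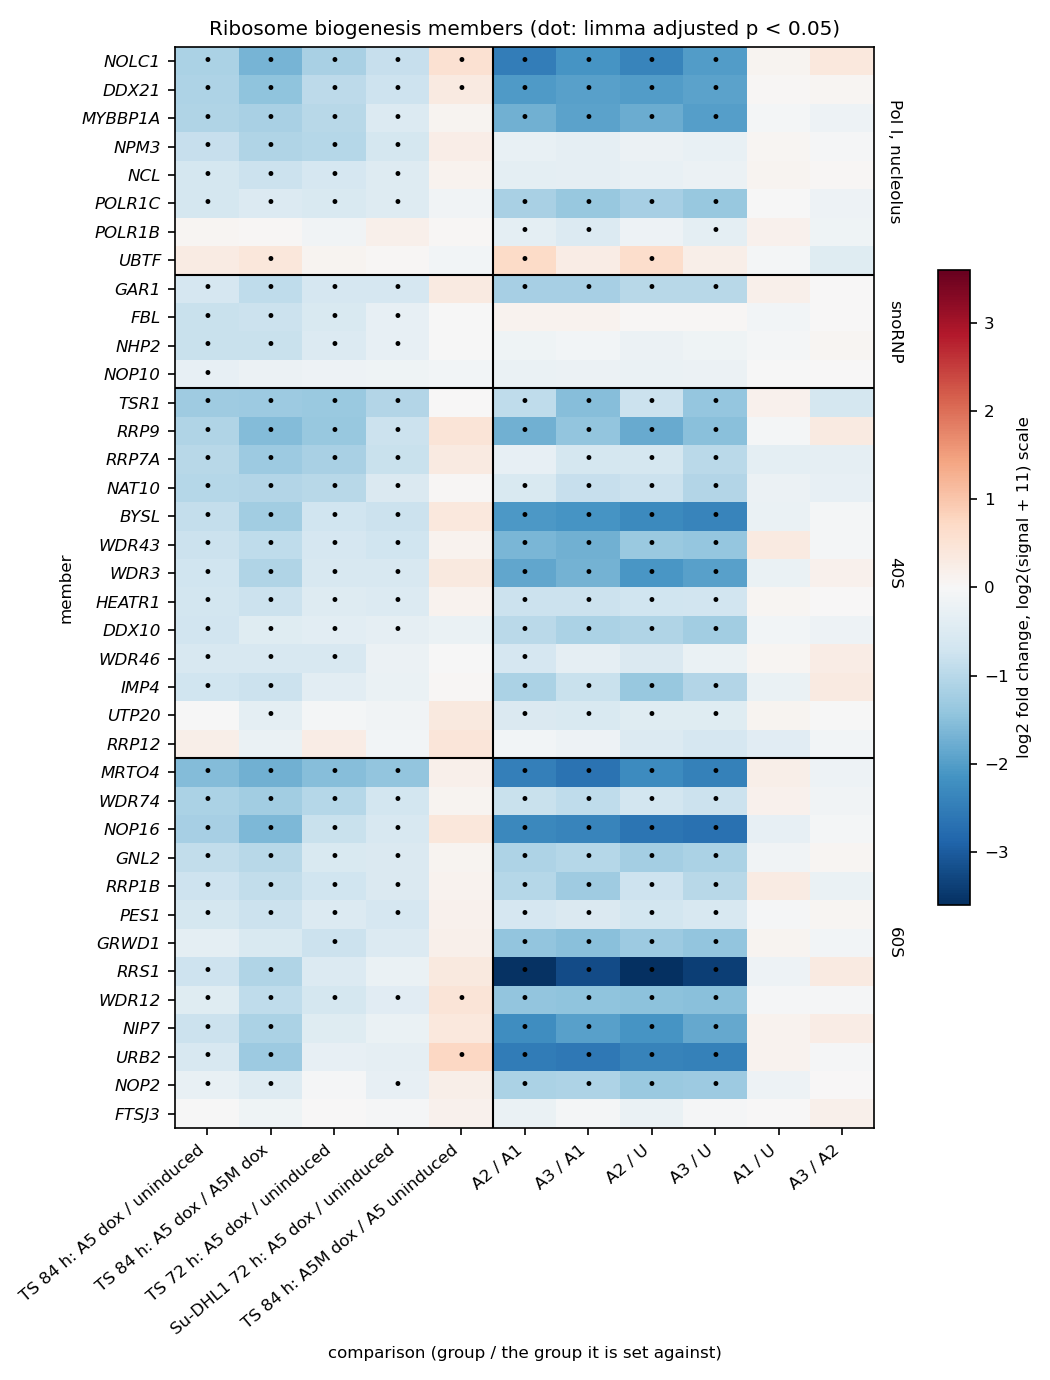
Log2 fold change, on the log2(signal + 11) scale, of the 38 measured genes (rows, by role and by their change with the hairpin) in 11 comparisons (columns), each written as a group over the group it is set against. Blue is lower, red is higher, and a dot marks a limma adjusted p under 0.05. The columns of A5 with doxycycline and of A2 and A3 against A1 or U are blue in most rows, while A5M over uninduced cells, A1 over U and A3 over A2 are pale.

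Among the genes for RNA polymerase I and the nucleolus, 6 of 8 fell on the average of the settings. NOLC1, a nucleolar chaperone of snoRNPs, had signals of 346.3, 361.4 and 356.5 with A5 at 84 h, against 867.0, 657.6 and 861.4 without doxycycline in TS cells. At 72 h its signals were 562.2, 530.3 and 588.7 with A5, against 1186.6, 1363.3 and 1251.5 without doxycycline in TS cells. In Su-DHL1 cells they were 533.0, 547.9 and 651.1 with A5, against 1015.6, 1037.2 and 1068.2 without doxycycline. The groups did not overlap in any setting, and the average fall was -1.04 ± 0.06 (limma adjusted p = 2.95e-13). DDX21, an RNA helicase that links polymerase I transcription to processing, had 541.0, 586.9 and 552.4 with A5 at 84 h, against 1478.3, 1136.9 and 1104.8 without doxycycline. In Su-DHL1 cells DDX21 had 1123.8, 1088.1 and 1134.7 with A5, against 1834.5, 1889.8 and 1928.1 without doxycycline. It fell in every setting without overlap, on average by -0.94 ± 0.06 (limma adjusted p = 8.50e-13). MYBBP1A, a nucleolar partner of MYB and a regulator of polymerase I, had 51.8, 97.7 and 77.9 with A5 at 84 h, against 176.3, 175.2 and 155.3 without doxycycline. NPM3, a nucleolar relative of nucleophosmin, had 289.3, 312.5 and 321.6 with A5 at 84 h, against 564.0, 551.2 and 554.3 without doxycycline. Both fell in all 3 settings, MYBBP1A on average by -0.86 ± 0.09 and NPM3 by -0.83 ± 0.06. NCL, the abundant nucleolar protein nucleolin, and POLR1C, a subunit shared by polymerases I and III, fell by less, at -0.57 ± 0.07 and -0.54 ± 0.07. The polymerase I subunit POLR1B (0.03 ± 0.07, limma adjusted p = 0.74) and UBTF, the transcription factor of the ribosomal DNA (0.14 ± 0.08, limma adjusted p = 0.16), did not pass the test.

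All 4 measured snoRNP core proteins fell on the average, with small standard errors beside modest changes. FBL, the methyltransferase fibrillarin of the box C/D snoRNPs, had 3726.4, 3496.0 and 3781.2 with A5 at 84 h, against 5967.2, 6733.9 and 6371.2 without doxycycline. In Su-DHL1 cells FBL had 4700.7, 4824.4 and 4362.5 with A5, against 5655.2, 5234.4 and 6012.6 without doxycycline. No groups overlapped, and FBL fell by -0.79 ± 0.09 in TS cells at 84 h and by -0.28 ± 0.09 in Su-DHL1 cells. The other three belong to the box H/ACA snoRNPs, which guide pseudouridylation. NHP2 had 1188.7, 1255.6 and 1230.6 with A5 at 84 h, against 2196.9, 2076.7 and 2161.0 without doxycycline, and GAR1 had 191.0, 163.8 and 202.7 with A5, against 279.9, 304.5 and 272.9 without it. On average GAR1 fell by -0.60 ± 0.06, FBL by -0.54 ± 0.05 and NHP2 by -0.54 ± 0.05. NOP10 had 2733.5, 2574.3 and 2051.9 with A5 at 84 h, against 2811.1, 3359.5 and 2805.1 without doxycycline. Its average fall of -0.21 ± 0.06 (limma adjusted p = 0.00588) was lost in the model that held the ACTB ratio, at -0.13 and a limma adjusted p of 0.499.

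Of the 13 measured factors of the small subunit, 11 fell on the average. TSR1, a GTPase-like factor of late 40S precursors known from yeast, had 169.4, 218.7 and 176.2 with A5 at 84 h, against 481.6, 478.3 and 454.8 without doxycycline. At 72 h TSR1 had 246.3, 275.3 and 263.4 with A5, against 769.2, 607.0 and 681.7 without doxycycline in TS cells. In Su-DHL1 cells it had 399.6, 498.7 and 510.5 with A5, against 847.8, 931.8 and 1163.2 without doxycycline. Each induced array lay below each uninduced array of its setting, and the average fall was -1.22 ± 0.08 (limma adjusted p = 2.03e-12). RRP9, a protein specific to the U3 snoRNP, had 55.2, 43.4 and 61.8 with A5 at 84 h, against 123.1, 140.6 and 114.6 without doxycycline. At 72 h RRP9 had 44.0, 75.5 and 76.7 with A5, against 203.9, 153.4 and 188.4 without doxycycline in TS cells. It fell in every setting without overlap, on average by -1.07 ± 0.12. RRP7A, a component of the small subunit processome, had 121.5, 218.3 and 202.0 with A5 at 84 h, against 433.7, 421.5 and 261.7 without doxycycline. NAT10, the acetyltransferase of 18S ribosomal RNA, had 241.3, 234.2 and 251.8 with A5 at 84 h, against 589.7, 499.1 and 429.0 without doxycycline. Both fell in all settings without overlap, RRP7A on average by -0.99 ± 0.10 and NAT10 by -0.85 ± 0.08. BYSL, WDR43, WDR3, HEATR1, DDX10, WDR46 and IMP4 fell by between -0.78 and -0.45. UTP20 (-0.06 ± 0.08) and RRP12 (0.12 ± 0.12) were not called. RRP12, an export factor of 40S precursors known from yeast, depended on the probe set: the one used was the brightest by rule. A dimmer one had 3.4, 9.0 and 6.9 with A5 at 72 h, against 65.5, 91.2 and 44.7 without doxycycline in TS cells. It was called lower at 72 h in both lines, but not at 84 h, with 5.9, 6.6 and 4.1 with A5, against 24.3, 7.0 and 15.1 without doxycycline (limma adjusted p = 0.132). Nearly all of its induced arrays lay under the pseudocount, so no fold is read from it.

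Of the 13 measured factors of the large subunit, 12 fell on the average. MRTO4, which in yeast holds the place of the ribosomal stalk protein on 60S precursors, changed most of all 38. Its signals were 135.8, 190.6 and 177.2 with A5 at 84 h, against 441.0, 687.5 and 438.6 without doxycycline. At 72 h they were 220.9, 245.6 and 206.4 with A5, against 621.7, 637.7 and 746.3 without doxycycline in TS cells. In Su-DHL1 cells they were 171.4, 173.1 and 149.8 with A5, against 402.1, 418.5 and 575.4 without doxycycline. No groups overlapped, the fall was between -1.56 and -1.42 in the 3 settings, and on average it was 2.83-fold (-1.50 ± 0.11, limma adjusted p = 4.48e-11). WDR74, a nucleolar factor of early 60S precursors, had 170.3, 139.8 and 128.3 with A5 at 84 h, against 316.1, 382.8 and 310.7 without doxycycline. NOP16, a nucleolar 60S factor, had 358.5, 357.7 and 283.5 with A5 at 84 h, against 750.7, 672.5 and 907.6 without doxycycline. GNL2, a GTPase of 60S assembly, had 204.0, 224.7 and 169.8 with A5 at 84 h, against 383.8, 362.4 and 381.7 without doxycycline. These 3 fell in every setting without overlap, WDR74 on average by -0.94 ± 0.08, NOP16 by -0.85 ± 0.11 and GNL2 by -0.66 ± 0.08. RRP1B, PES1, GRWD1, RRS1, WDR12, NIP7, URB2 and NOP2 fell on the average by between -0.66 and -0.20. PES1 and WDR12, partners in the PeBoW complex, fell by -0.58 ± 0.08 and -0.49 ± 0.08, both near the median of the 60S factors (-0.54). With A2 their falls differed in size. PES1 had 206.8, 178.4 and 196.2 with A2, against 297.6, 296.6 and 312.1 with A1. WDR12 had 518.2, 488.3 and 467.9 with A2, against 1368.6, 1315.1 and 1294.1 with A1. FTSJ3, a ribosomal RNA methyltransferase, was the exception at -0.02 ± 0.07 (limma adjusted p = 0.85).

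**Figure D3:**
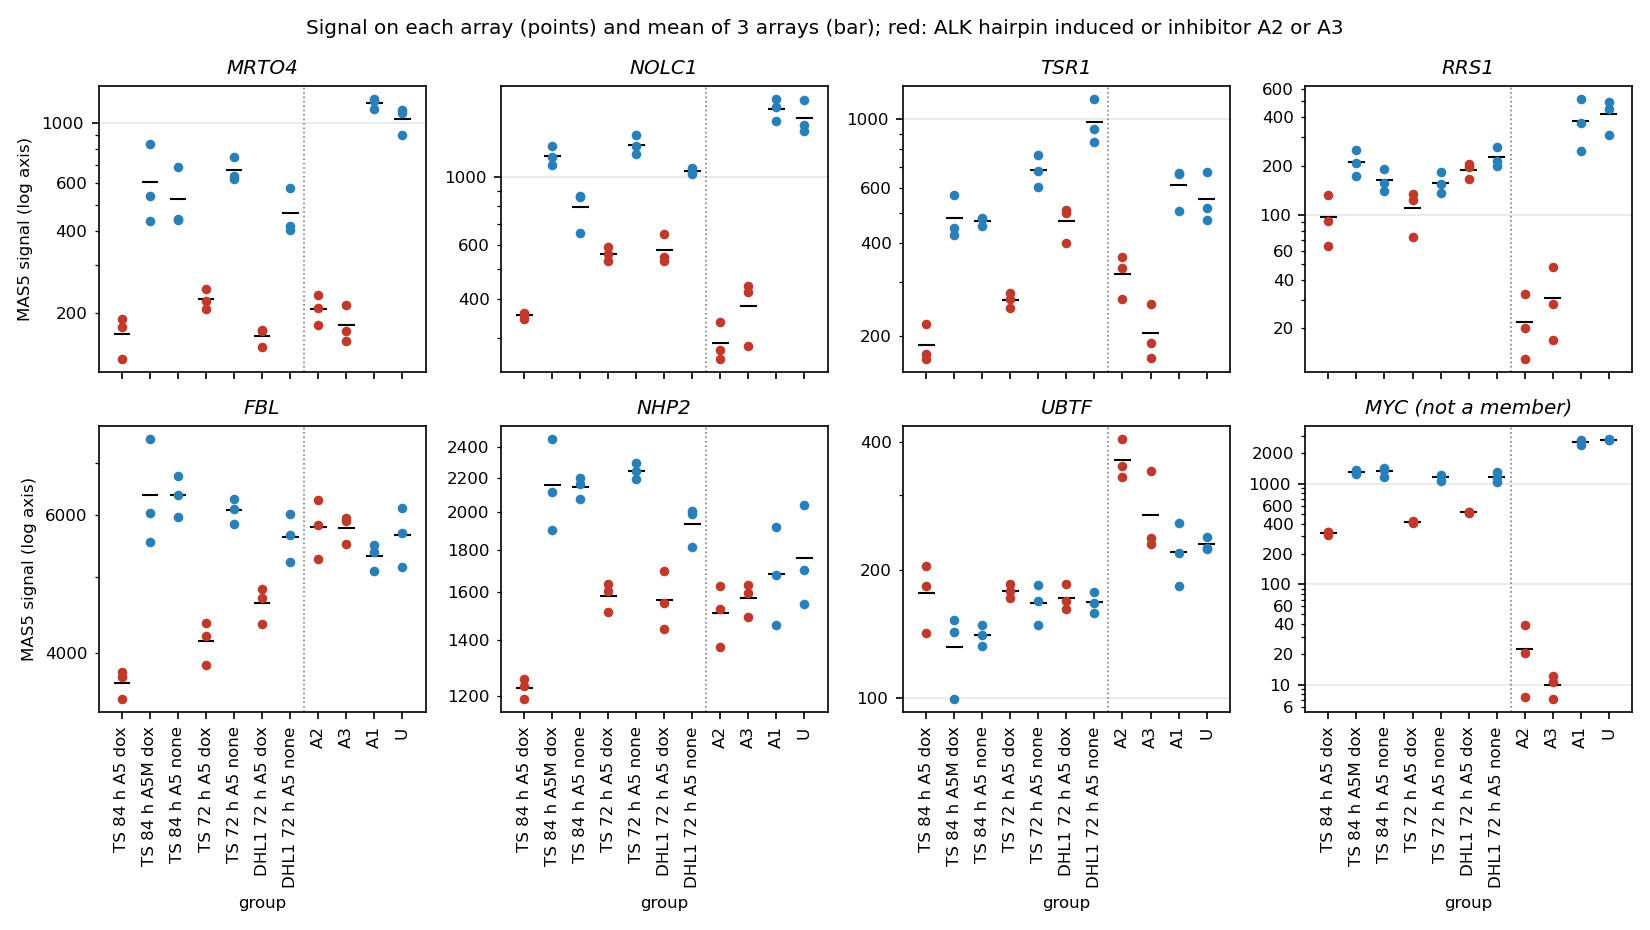
MAS5 signal on each array (points, log axis) and the mean of 3 arrays (bar) for 7 ribosome biogenesis genes and MYC in the 11 groups. Red marks ALK hairpin induced or A2 or A3, blue the other groups, and a dotted line parts the 2 experiments. MRTO4 and NOLC1 are lower in every red group than in any blue group, and TSR1 is lower in each red group than in its own blue control. FBL and NHP2 are lower in each hairpin group than in its own uninduced control. Their A2 and A3 arrays overlap with those of U, and NHP2 with A2 or A3 is about as low as with the hairpin at 72 h. RRS1 is lowest with A2 and A3.

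Set against the mutated hairpin A5M, which also received doxycycline, the ALK hairpin again came with lower values of most genes in TS cells at 84 h. Of the 38 genes 32 were lower and 1 was higher with A5 than with A5M, with a median of -0.90, where 20% of all genes tested were lower and 23.3% higher. This comparison shares its A5 arrays with that against uninduced cells, and its A5 and A5M cells are different transduced cells. MRTO4 had 434.0, 539.6 and 837.0 with A5M, so that its A5 arrays, given above, all lay below (-1.74 ± 0.19, limma adjusted p = 7.72e-08). NOLC1 had 1088.7, 1156.6 and 1255.3 with A5M, likewise above all A5 arrays (-1.69 ± 0.10, limma adjusted p = 2.58e-12). NOP16 (-1.61 ± 0.18), RRP9 (-1.57 ± 0.20) and DDX21 (-1.44 ± 0.10) were next in size. UBTF was the one gene called higher. It had 183.7, 142.2 and 204.7 with A5, against 142.8, 152.7 and 99.4 with A5M. These groups overlapped, and its 0.40 ± 0.14 (limma adjusted p = 0.0255) missed the threshold when A5M replicate 3 was left out (0.23, adjusted p = 0.201), without A5 replicate 1 (adjusted p = 0.0775) or 3 (adjusted p = 0.143), and with quantile normalization (adjusted p = 0.0789), median centring (adjusted p = 0.133) or the mean of its probe sets (adjusted p = 0.83). It also missed it with the replicate block (adjusted p = 0.0524), the ACTB ratio in the model (adjusted p = 0.0673) or only the arrays of the groups compared (adjusted p = 0.103).

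Set against uninduced A5 cells at 84 h, A5M came with 0 of the 38 genes lower and 4 higher, where 3.76% of all genes tested were lower and 3.24% higher. The median of the 38 was 0.15, against 0.0017 for all genes tested, and 7 of the 38 had a negative value. An unadjusted limma p under 0.05 was found for 13 of the 38, and for 1772 of all 9097 genes. URB2, a nucleolar 60S factor known from yeast, had 201.4, 165.9 and 148.3 with A5M, against 140.9, 91.0 and 73.1 without doxycycline (0.73 ± 0.19, limma adjusted p = 0.0201). NOLC1 had the A5M and uninduced values given above and was higher with A5M (0.56 ± 0.10, limma adjusted p = 0.00117), with no overlap. WDR12 (0.48 ± 0.15, limma adjusted p = 0.0477) and DDX21 (0.32 ± 0.10, limma adjusted p = 0.0463) passed narrowly, and their groups overlapped. The count of 4 moved by more than 1.5 times under 17 of 31 alternatives. It was 1 without uninduced replicate 2, and 0 when only the arrays of these groups were fitted. DDX21 lost its call under 24 of the 31 alternatives, WDR12 under 23, URB2 under 4 and NOLC1 under 1.

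The response to the ALK hairpin did not differ detectably between the lines or the times for any of the 38 genes. For the difference between TS and Su-DHL1 cells at 72 h, 0 were called by limma, where 2.89% of all genes tested were called. An unadjusted limma p under 0.05 was found for 5 of the 38, and for 1242 of all 9097 genes. The lowest limma adjusted p of the 38 was 0.218. The widest 95% intervals reached -1.18 and 0.98, so differences of 2-fold could not be shut out for every gene. RRP9 (-0.59 ± 0.28, limma adjusted p = 0.361) and MYBBP1A (-0.52 ± 0.23, limma adjusted p = 0.284) had the largest values, with the more negative response in TS cells. For 84 h against 72 h in TS cells, 0 were called by limma, where 1.28% of all genes were called. Here 2 of the 38 had an unadjusted limma p under 0.05, as did 972 of all 9097 genes. The lowest limma adjusted p of the 38 was 0.335. The intervals of this comparison reached -0.93 and 1.20. GRWD1 (0.40 ± 0.39) and NOP16 (-0.39 ± 0.26) had the largest values there, and the 95% interval of each included 0.

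Without doxycycline, the lines themselves differed in 9 of the 38 genes. Of these, 5 were lower and 4 higher in Su-DHL1 than in TS cells at 72 h, where 10.4% of all genes tested were lower and 10.8% higher, so the share was close to the background. RRP7A had 329.5, 304.4 and 303.4 in Su-DHL1 cells, against 520.9, 530.3 and 575.1 in TS cells (-0.77 ± 0.18). DDX10, a helicase of the small subunit processome, had 297.4, 331.6 and 273.9 in Su-DHL1 cells, against 494.6, 470.1 and 496.1 in TS cells (-0.68 ± 0.09). GAR1 ran the other way, with 544.4, 593.9 and 480.0 in Su-DHL1 cells, against 361.7, 319.1 and 370.3 in TS cells (0.60 ± 0.11). None of these 3 overlapped between the lines. GNL2 (-0.55 ± 0.14), NAT10 (-0.51 ± 0.14), WDR43 (0.50 ± 0.16), TSR1 (0.50 ± 0.13) and RRP1B (0.36 ± 0.11) were also called. NPM3, named after its values were seen, made up the count at -0.35 ± 0.11. The count of 9 was 5 without uninduced TS replicate 2, and also 5 with the ACTB ratio in the model. With the replicate number as a block, RRP7A (limma adjusted p = 0.13), NAT10 (0.115), WDR43 (0.263), TSR1 (0.472) and RRP1B (0.467) missed the threshold. RRP7A, TSR1 and WDR43 also missed it with the ACTB ratio in the model.

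Most of the 38 genes were also lower after 6 h with the inhibitors. Averaged over both inhibitors and set against A1, 30 of the 38 genes fell and 1 rose, with a median of -1.09, where 16.3% of all 8587 genes tested fell, 22.0% rose and the median was 0.03. A2 against A1 gave 29 lower and 1 higher, where 14.3% and 19.1% of all genes were called lower and higher. A3 against A1 gave 29 lower and 0 higher, where 14.2% and 18.5% were called. Against U, A2 gave 28 lower and 1 higher (15.4% and 19.8% of all genes), and A3 gave 29 lower and 0 higher (14.9% and 18.8%). The 4 comparisons share arrays and are not independent of each other. With the ACTB ratio in the model, 26 were lower and 0 higher on the average, and the share of all genes called in that model is not given here. MYC had signals of 7.6, 38.8 and 20.7 with A2 and 12.1, 10.5 and 7.2 with A3, against 2722.7, 2407.5 and 2641.1 with A1. The A3 signals and the lowest A2 signal of MYC lay close to or under the 20th percentile of the whole table (10.8), so that its fold would be set by the pseudocount and none is given. The part of MYC in these results was not tested.

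The largest falls were in 60S factors, of which 12 of 13 were lower on the average, with a median of -1.43. RRS1, which helps bring the 5S ribonucleoprotein into 60S precursors in yeast, had 32.4, 13 and 20 with A2 and 47.9, 17 and 28.1 with A3, against 370.1, 245.7 and 517.1 with A1 and 492.3, 451.5 and 308.9 in U. No inhibitor array came near a control array, and the fall was -3.38 ± 0.25 on the average (limma adjusted p = 1.45e-08), 11.7-fold for A2 against A1. The size depends on the pseudocount, and with 50 in place of 11 the average for RRS1 was -2.45. MRTO4 had 232.8, 209.1 and 180.9 with A2 and 213.7, 157.9 and 171.3 with A3, against 1204.7, 1220.5 and 1124.8 with A1 and 1114.5, 1083.4 and 897.4 in U. URB2 had 48.6, 41.6 and 69.0 with A2 and 44.8, 44.4 and 64.4 with A3, against 369.1, 348.9 and 339.3 with A1 and 297.4, 341.5 and 327.8 in U. Neither overlapped with either control, and MRTO4 fell by -2.55 ± 0.12 and URB2 by -2.54 ± 0.14 on the average. NOP16 had 195.4, 190.7 and 212.7 with A2 and 207.3, 156.0 and 215.9 with A3, against 1034.9, 911.3 and 1175.4 with A1, and it fell by -2.34 ± 0.12. NIP7, WDR12, GRWD1, RRP1B, NOP2, GNL2, WDR74 and PES1 fell by between -2.09 and -0.57. FTSJ3 again did not pass (-0.16 ± 0.11, limma adjusted p = 0.28).

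Of the 40S factors 11 of 13 fell, with a median of -0.96. BYSL, a 40S assembly factor also called bystin, had 103.7, 141.5 and 160.2 with A2 and 102.4, 146.5 and 130.8 with A3, against 522.5, 610.3 and 636.8 with A1 and 640.3, 738.7 and 698.4 in U. It fell by -2.14 ± 0.16 with A3 and by -2.05 ± 0.16 with A2 against A1, without overlap. UTP20, which did not pass on the hairpin average, fell here by -0.54 ± 0.13 (limma adjusted p = 0.003). WDR46 (-0.46 ± 0.18, limma adjusted p = 0.055) and RRP12 by the probe set used (-0.15 ± 0.23) were not called. By another probe set, dimmer over the 33 arrays, RRP12 had 30.3, 22.7 and 11 with A2 and 16.3, 11.9 and 32.0 with A3. With A1 it had 227.6, 291.1 and 256.7, brighter than the probe set used, which had 75.9, 87.4 and 35.2. This other probe set was called lower (limma adjusted p = 6.69e-09). A further one of RRP12, with 135.7, 214.7 and 296.4 with A1, was also called lower (limma adjusted p = 3.11e-05). The size of both falls depends on the pseudocount.

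Of the genes for polymerase I and the nucleolus, 6 of 8 fell and UBTF rose. NOLC1 had 336.3, 274.2 and 256.4 with A2 and 440.1, 281.4 and 423.5 with A3, against 1680.6, 1516.8 and 1784.4 with A1 and 1766.5, 1400.1 and 1473.0 in U. It fell by -2.30 ± 0.14, without overlap, and DDX21 (-2.0 ± 0.09) and MYBBP1A (-1.82 ± 0.13) were next. UBTF had 351, 406.0 and 329.8 with A2 and 230.3, 341.2 and 237.7 with A3, against 183.2, 257.5 and 218.8 with A1 and 239.4, 223.4 and 225.4 in U. The A2 arrays lay above all control arrays and the A3 arrays overlapped with A1. UBTF was called higher with A2 against A1 (0.70 ± 0.16, limma adjusted p = 0.00201) and against U (0.63 ± 0.16, limma adjusted p = 0.0041), and with A3 against A1 it was 0.27 ± 0.16 (limma adjusted p = 0.2). Its rise on the average (0.49 ± 0.13, limma adjusted p = 0.0081) missed the threshold without A1 replicate 1 (0.37, adjusted p = 0.0687) and with the ACTB ratio in the model (0.22, adjusted p = 0.545). The call for A2 against A1 was also lost in that model (0.43, adjusted p = 0.228).

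Of the snoRNP core proteins, 1 of 4 fell with the inhibitors, and their median was -0.17. GAR1 had 160.3, 190.3 and 174.6 with A2 and 164.2, 163.7 and 203.3 with A3, against 398.2, 375.5 and 472.8 with A1, and fell by -1.19 ± 0.11. FBL had 5830.1, 6280.5 and 5269.7 with A2 and 5507.4, 5946.2 and 5901.6 with A3, against 5085.7, 5383.6 and 5488.6 with A1 and 6125.1, 5157.8 and 5699.6 in U. The A2 arrays of FBL overlapped with A1, the A3 arrays lay just above it, and the average was 0.12 ± 0.09 (limma adjusted p = 0.34). NHP2 (-0.12 ± 0.11, limma adjusted p = 0.42) and NOP10 (-0.22 ± 0.09, limma adjusted p = 0.077) were not called either.

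The control compound and the 2 inhibitors were also compared with each other. For A1 against U, limma called 0 of the 38 genes, where 0.0349% of all genes tested were called. An unadjusted limma p under 0.05 was found for 4 of the 38, and for 765 of all 8587 genes. The lowest limma adjusted p of the 38 was 0.371. The widest intervals reached -0.95 and 0.65. The largest values were those of RRP12 (-0.40 ± 0.26) and RRP7A (-0.34 ± 0.12, limma adjusted p = 0.37). For A3 against A2, at the same dose and time, limma called 0 of the 38 genes, where 0.151% of all genes were called. Here 6 of the 38 had an unadjusted limma p under 0.05, as did 762 of all 8587 genes. The lowest limma adjusted p of the 38 was 0.267. Intervals reached -0.98 and 0.95. TSR1 had the largest value, with 170.1, 253.6 and 190.2 with A3, against 263.7, 331.8 and 360.1 with A2 (-0.62 ± 0.17). UBTF followed at -0.43 ± 0.16 (limma adjusted p = 0.41). A p that misses the threshold does not show that the compounds act alike.

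The hairpin and the inhibitors were then set side by side, and their difference was tested in 1 fit of all 33 arrays, a comparison added after seeing the data. On the averages 28 genes fell in both, 5 with the hairpin only by the test, 2 with the inhibitors only and 3 in neither. The overlap was not counted over all genes tested, of which 21.7% fell with the hairpin and 16.3% with the inhibitors. Across the 38 genes the changes correlated at Pearson's r = 0.49 and Spearman's rho = 0.45, a description over genes that share arrays and scaling. The change was the more negative with the inhibitors for 28 of 38. By limma, the change with the hairpin was less negative than that with the inhibitors for 22 genes and more negative for 4. Of all 9297 genes tested, 16.4% and 15.0% were called in those directions. The means, the time of treatment (72 or 84 h against 6 h), the preparation of the cells (transduced and sorted for the hairpin) and the lines (Su-DHL1 is in the hairpin average but not among the inhibitor arrays) differ together and cannot be told apart. Among the 22 were RRS1 (hairpin minus inhibitor difference 2.89 ± 0.28), URB2 (2.15 ± 0.19), NIP7 (1.61 ± 0.22), NOP16 (1.49 ± 0.18) and BYSL (1.31 ± 0.15). With a pseudocount of 50 the difference for RRS1 was 2.07. The control signals of RRS1 were 191.8, 139.9 and 157 in uninduced TS cells at 84 h, against 370.1, 245.7 and 517.1 with A1. The 60S factors gave 10 of these 22 calls and none of the 4. The 4 genes with the more negative change under the hairpin were FBL (-0.66 ± 0.10, limma adjusted p = 2.23e-06), RRP7A (-0.53 ± 0.16), NPM3 (-0.52 ± 0.11) and NHP2 (-0.42 ± 0.11). NIP7, a 60S factor, had 90.7, 95.6 and 109.9 with A5 at 84 h, against 204.2, 135.0 and 194.8 without doxycycline, and 40.7, 40.4 and 64.0 with A2, against 267.6, 205.4 and 332.3 with A1.

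**Figure D4:**
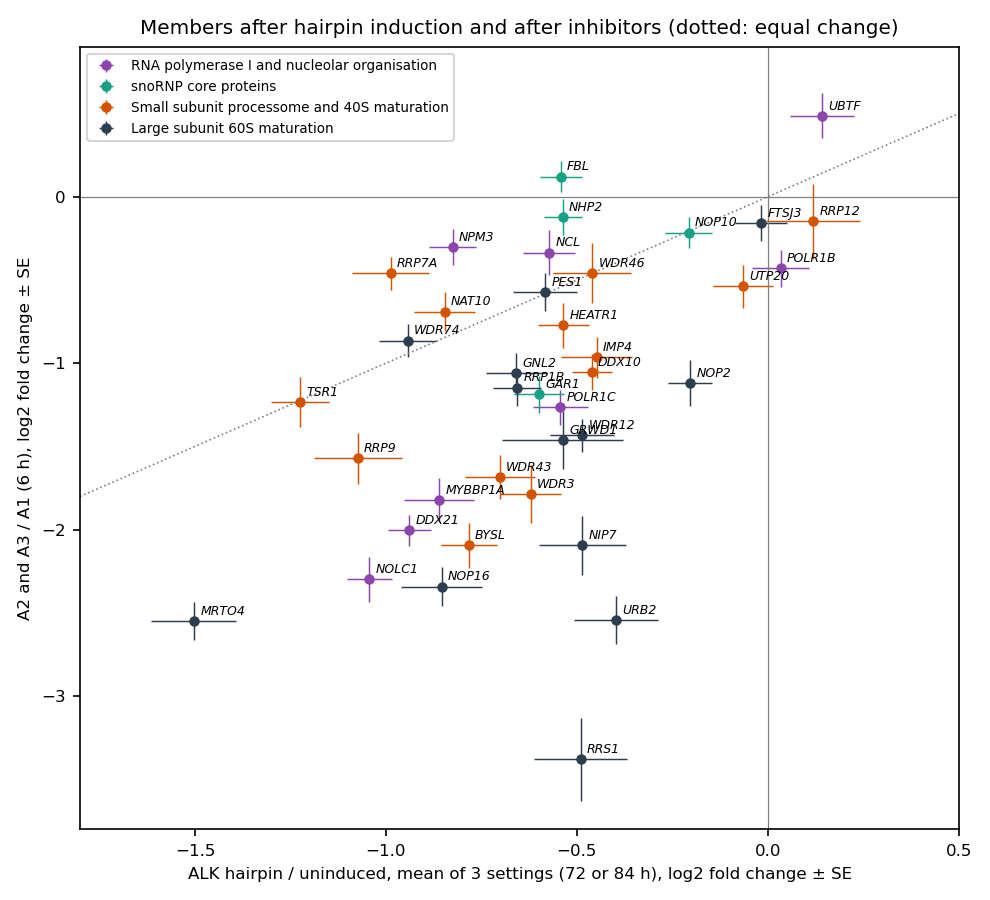
Log2 fold change of each of the 38 genes with the ALK hairpin (x axis, mean of 3 settings) against that with A2 and A3 over A1 at 6 h (y axis), with standard errors, coloured by role. The dotted line marks equal change. Of the 38 points 28 lie below it, with RRS1, URB2 and MRTO4 lowest, and FBL, NHP2, NPM3 and RRP7A lie above it.

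Genes with and without CACGTG near an annotated start fell in both experiments. With the hairpin, 15 of 16 genes with the E-box fell, with a median of -0.63, and 14 of 17 without it, with a median of -0.54. With the inhibitors 13 of 16 genes with it fell, with a median of -1.09, and 13 of 17 without it, with a median of -0.87. Both groups spread widely, between -1.50 and -0.06 with the E-box and between -1.22 and 0.14 without it under the hairpin. NOP16 and NPM3, printed above without the motif, fell by -0.85 and -0.83, and UTP20, printed with it, was at -0.06.

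Other genes of the pathway, 99 further factors of which 81 were tested in each experiment, moved the same way. On the hairpin average 59 of 81 fell and 0 rose, with a median of -0.41, where 21.7% of all genes tested fell. With the inhibitors 56 of 81 fell and 0 rose, with a median of -0.68, where 16.3% of all genes fell. PWP2, a small subunit processome protein, fell by -1.31 ± 0.13 with the hairpin and by -2.56 ± 0.26 with the inhibitors. POLR1G, a subunit of RNA polymerase I, fell by -1.20 ± 0.07 and -2.12 ± 0.10. EXOSC5, of the RNA exosome that trims ribosomal RNA precursors, fell by -1.23 ± 0.07 with the hairpin. By class 6 of 10 polymerase I genes, 19 of 29 40S factors, 27 of 33 60S factors and 7 of 9 exosome genes fell with the hairpin. The inhibitors lowered 5 of 10 polymerase I genes, 22 of 28 40S factors, 26 of 34 60S factors and 3 of 9 exosome genes. In the fit of all 33 arrays, the change of 5 of the 9 exosome genes was called more negative with the hairpin than with the inhibitors. Of all genes, 15.0% were called in that direction.

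**Figure D5:**
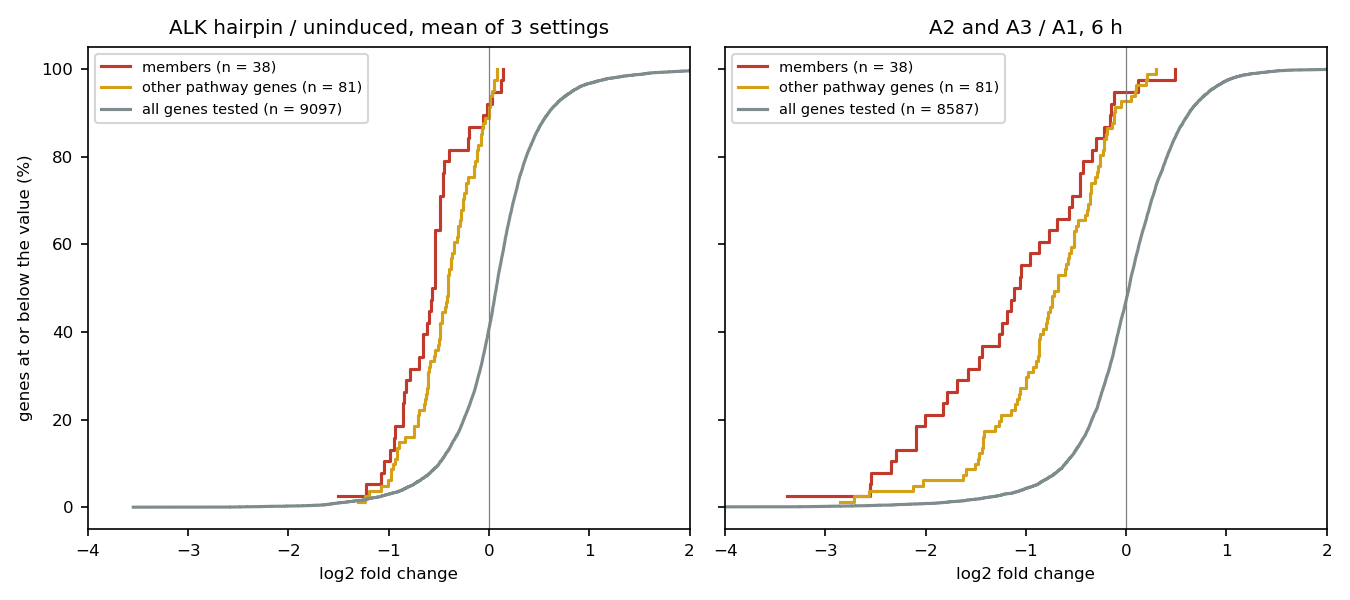
Share of genes (y axis, percent) at or below each log2 fold change (x axis) for the 38 ribosome biogenesis genes, the 81 other pathway genes and all genes tested, with the ALK hairpin (left) and with A2 and A3 (right). The curve of the 38 genes lies left of that of all genes, with medians of -0.56 against 0.07 and of -1.09 against 0.03.

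Where a gene had further probe sets, they mostly moved the same way. Of 13 further probe sets of 10 genes that passed the filter, 11 had the sign of the one used on the hairpin average, and 14 of 14 did with the inhibitors. The exceptions with the hairpin were the dimmer probe set of RRP12 described above and a second one of NOP16 (0.13 ± 0.21). By its further probe sets TSR1 fell by -0.52 ± 0.13 and was at -0.16 ± 0.08 (limma adjusted p = 0.0898), against -1.22 by the one used, so the size of its fall depends on the probe set. By its further probe sets NOLC1 fell by -0.73 ± 0.06 and by -0.26 ± 0.08.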

How the data were processed

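Gene expression was measured in total RNA on Affymetrix HG-U133A arrays, 1 per sample. The authors deposited 1 linear intensity for every probe set, the MAS5 signal named in the submitters' processing notes, whose version is not given in the sources used here. Trimmed means (2% off each end) were 200.06 to 200.08, array medians between 54.8 and 69.3, and replicate arrays correlated at 0.969 to 0.985. The number of arrays limits the precision, and no dates or batches were given.

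Of 22283 probe sets, 68 controls were left out, 19065 had 1 gene symbol in the platform annotation, 1043 had several and 2107 had none there. Gene IDs of 19053 matched the GRCh38.p14 gene table, and no symbol was updated. A pseudocount of 11, close to the 20th percentile of the whole table (10.8), was added before log2 was taken. Only probe sets at or above the 40th percentile of 3 or more arrays of a fit were kept, and each gene was represented by its brightest remaining probe set (mean log2 signal, 33 arrays).

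Group-mean models were run in limma (version 3.58.1, R 4.3.3) with lmFit and eBayes, the trend option on, over 21 arrays and 9097 genes for the hairpin, 12 arrays and 8587 genes for the inhibitors, and 33 arrays and 9297 genes for the difference of the responses. P-values are two-sided. Plots were made in Python 3.11.15 with matplotlib 3.10.9. Promoter sequences are RefSeq's, and motifs were searched as exact letters on both strands.

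The members, roles, other pathway genes, motifs and rule for naming genes were chosen with earlier results of these data known. The rule gave values for the 4 largest called changes per role on the hairpin average, the 5 largest called changes in each other comparison (2 where none was called) and every called gene that ran against the rest. Members beyond the rule are given by range or with their value, chosen after values were seen. Samples with the same replicate number did not deviate together, so the numbers were not used as a block. Alternatives were 2 other normalizations, pseudocounts of 1 and 50, a 60th percentile filter, no filter, the mean of a gene's probe sets, the ACTB ratio as a covariate, the replicate block, fits of only the arrays compared, and leaving out each array.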

Additional observations from a re-analysis of the deposited data

How the results depend on the processing

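Counts of called genes stayed within 1.5 times of those reported in 15 of 17 comparisons under every alternative run. For A5M against uninduced cells the count of 4 was 2 with median centring, without a filter, with the replicate block or with the ACTB ratio in the model, 0 with only the arrays of the groups compared, and between 1 and 5 when single arrays were left out. For uninduced Su-DHL1 against TS cells the count of 9 was 4 with the replicate block, 5 with the ACTB covariate, and between 5 and 12 when single arrays were left out. The paired fit, with the replicate number as a block, gave 32, 27 and 24 called genes in TS cells at 84 h, TS cells at 72 h and Su-DHL1 cells; same-numbered samples correlated between -0.21 and 0.11 in their deviations, so the numbers do not pair the samples. Of 2733 values of named genes under alternatives, 2647 kept direction and side of the threshold, 85 lost their call, and 1 reversed. RRP12 for A1 against U was 0.19 with the 60th percentile filter and -0.40 as reported, with neither called. Under that filter RRP12 was read from another of its probe sets. This had 227.6, 291.1 and 256.7 with A1, against 202.5, 244.4 and 228.1 in U. NOP10 and UBTF lost calls as given above, as did DDX21, WDR12, URB2 and NOLC1 for A5M against uninduced cells. RRP7A, NAT10, RRP1B, TSR1 and WDR43 lost their calls between the uninduced lines under some alternatives. All-gene medians moved by at most 0.15 between scalings, and the directions of the medians of the 38 genes with the hairpin and the inhibitors were kept.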
